A study of Mus musculus with 16 samples.

Results

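In S100a5-tauGFP mice that breathed only filtered air, olfactory neurons carrying the reporter (GFP+) and the remaining cells of the olfactory mucosa (GFP-) were sorted apart, and the RNA of both fractions was compared. The comparison comprises the 8 of the 16 arrays of the study whose titles begin with the word Vehicle, 4 of GFP+ and 4 of GFP- cells. Each pool of 3 mice gave a GFP+ and a GFP- array with the same replicate number, so the 4 pairs come from the same animals. The mice were 7 to 12 weeks old and of both sexes, all carried the reporter, and each spent 40 h alone in a chamber flushed at 3.1 L/min. From 26 h on, the vehicle animals received pulses of filtered air for 10 s every 20 min, whereas the animals of the other 8 arrays received an odor, 1-pentanethiol according to the sample labels and bourgeonal according to the design text of the series. Mouse strain and the construction of the reporter allele are not named in the labels. Cells of mice without the reporter were not analysed here, so the purity of the GFP+ fraction can be read only from marker genes.

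Each mature olfactory sensory neuron transcribes mainly a single odorant receptor gene out of a very large family, and binding of an odorant opens cyclic nucleotide-gated channels in its cilia through the G protein Golf and an adenylyl cyclase. Receptors differ in how often they signal without an added odor, and electrical activity raises a small set of transcripts slowly, among them S100a5, a calcium-binding protein of the S100 family. The reporter therefore marks neurons that were recently active, and the design, called the Kentucky assay, reads which receptors such neurons express. In filtered air the GFP+ fraction is thus taken to hold neurons active without the test odor, and activity itself was not measured on the arrays.

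All values are log2 signals of probe sets on Clariom S mouse arrays, 22206 of which were tested, and a difference is GFP+ minus GFP-, given ± SE with n = 4 arrays per group. Calls are Benjamini-Hochberg adjusted p-values under 0.05 from limma over all tested probe sets. Correlations across probe sets were 0.984 to 0.993 among the GFP+ arrays, 0.992 to 0.995 among the GFP- arrays and 0.950 to 0.964 between the fractions. The GFP+ array of replicate 2 stood apart from its group, with a median of 7.28 for the negative control entries against 6.22 to 6.38 on the other GFP+ arrays. Its median over the odorant receptors was 9.39, against 9.86 to 9.97. The mean of each fraction rests on 4 arrays. Unless another fit is named, the spread behind each SE and limma p-value was estimated from all arrays of the study, odor arrays included. In bulk RNA fewer cells of a type and less RNA per cell cannot be told apart.

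S100a5 itself had log2 signals of 16.55, 16.62, 16.67 and 16.82 in the GFP+ samples and 15.78, 15.88, 15.70 and 15.81 in the GFP- samples. Every GFP+ array lay above every GFP- array, and all pools showed a difference of the same sign. The mean difference was 0.87 ± 0.12, or 1.83-fold (limma adjusted p = 3.51e-05), and since the sort was made on a reporter of this gene it is a check of the labels. The GFP- arrays also had S100a5 signal far over their negative controls, which had medians of 5.99 to 6.12. Omp, the olfactory marker protein of mature neurons, did not pass the threshold, with 18.34, 18.21, 18.33 and 18.41 in GFP+ and 18.28, 18.33, 18.14 and 18.34 in GFP- samples (0.05 ± 0.10, limma adjusted p = 0.742), and the sign of its difference turned with receptor medians set equal. The groups overlapped, and Omp was bright on all 8 arrays. Its values lay near the top of the deposited range, 18.85, and whether its difference was compressed there was not tested. The 250 bases upstream of the annotated start of S100a5 are shown because this is the gene whose activity dependence the sort uses. They lie at chr3:90608272-90608521 on the plus strand of GRCm38.p6, taken from RefSeq, and hold none of the 4 motifs described here (TAATTA, GTTGCCNNG, GAGGAAGT and the cyclic AMP response element TGACGTCA), on either strand.
S100a5: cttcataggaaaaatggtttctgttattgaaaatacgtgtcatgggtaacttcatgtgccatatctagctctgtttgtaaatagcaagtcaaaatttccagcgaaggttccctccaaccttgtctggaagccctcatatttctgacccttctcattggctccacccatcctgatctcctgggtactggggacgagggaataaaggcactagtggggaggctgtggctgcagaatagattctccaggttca

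Over all tested probe sets 2074 were higher in GFP+ cells (9.34%) and 2617 lower (11.8%), together 21.1%, and for 23.7% the GFP+ and GFP- values did not overlap. The enriched and the depleted side differed in composition. Of the 150 probe sets over 4-fold higher, 142 were odorant receptors, 5 carried no gene symbol and 3 were other genes (Fxyd2, Taar4 and Taar9). Of the 885 over 4-fold lower, 143 were odorant receptors. At over 16-fold, 12 probe sets were higher, 11 of them receptors and the last without a gene symbol, whereas 221 were lower, 184 of them other than receptors. The median difference over all probe sets was 0.11, so many calls on the enriched side were small and moved with the scaling of the arrays. With the medians of the receptors set equal between arrays, which shifted the median difference by -0.23, 515 probe sets were higher (2.32%) and 3237 lower (14.6%), and with the medians of all probe sets set equal, a shift of 0.35, 13003 were higher (58.6%) and 2008 lower (9.04%). With the pool of mice as a block on all 16 arrays 2119 were higher (9.54%) and 2625 lower (11.8%), and this is the fit meant by a block in what follows. Fitting only the 8 vehicle arrays gave 1462 higher (6.58%) and 2447 lower without a block, and 1365 (6.15%) and 2416 (10.9%) with one. Without the GFP+ array of replicate 2 the counts were 2290 (10.3%) and 2559 (11.5%).

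**Figure D1:**
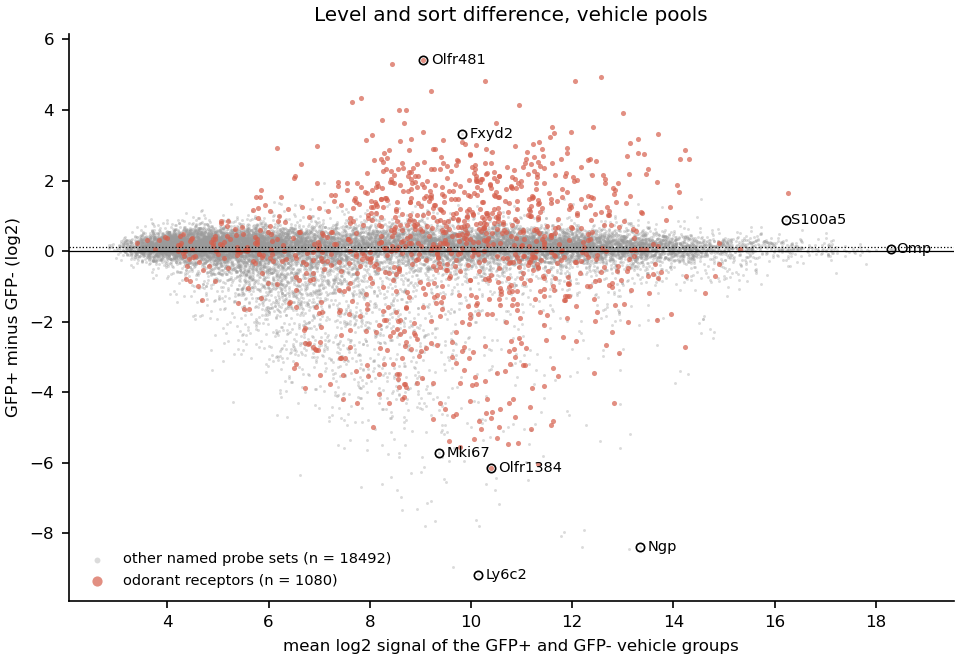
Each point is a named probe set, with the mean log2 signal of the 2 vehicle groups on the horizontal axis and the GFP+ minus GFP- difference (log2) on the vertical axis; the dotted line is the median of all tested probe sets, 0.11. The 1080 odorant receptors (red) spread from -6.15 to 5.43, while the other probe sets (grey) lie mostly near 0 with a tail of depleted genes such as Ngp and Ly6c2.

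Odorant receptors passed in both directions, and more often than other genes. Of 1080 receptors, 399 were higher in GFP+ cells and 264 lower, and 417 did not pass, so 61.39% passed against 19.07% of the other probe sets. Their differences had an interquartile range of 2.20, against 0.40 for the other probe sets, although their median SE was also larger (0.29 against 0.17). The difference was positive in all 4 pools for 457 receptors, negative in all 4 for 299 and of mixed sign for 324. Both group means lay at or under the negative controls for 86 receptors, 73 of which are among the 417 that did not pass. With receptor medians set equal 341 were higher and 296 lower, with the medians of all probe sets set equal 539 and 241, and with the pool as a block 428 and 285.

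The most enriched receptor was Olfr481, with 11.23, 11.59, 12.00 and 12.29 in GFP+ samples and 6.22, 6.59, 6.14 and 6.43 in GFP- samples. The GFP- values lay close to the negative controls of those arrays, and the lowest GFP+ value was more than 4 log2 units over the highest GFP- value. The difference was 5.43 ± 0.34, or 43.1-fold (limma adjusted p = 3.49e-09). Olfr309 was well above the negative controls in both fractions, from 14.76 to 15.35 in GFP+ and at 11.09, 9.91, 9.74 and 9.67 in GFP- samples, and differed by 4.95 ± 0.31 (30.9-fold, limma adjusted p = 3.43e-09). Its GFP- value was higher in replicate 1 than in the others, and the groups were still far apart. Olfr536 had 14.64, 14.18, 14.65 and 14.38 against 10.08, 9.15, 9.72 and 9.66, a difference of 4.81 ± 0.27 (28.1-fold).

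Olfr613 had 10.21, 11.03, 10.95 and 12.18 in GFP+ and 5.92, 5.89, 5.79 and 5.60 in GFP- samples, and Olfr520 had 9.62, 8.70, 10.09 and 10.61 and 5.97, 5.32, 5.02 and 5.83. In both the GFP- mean lay under the mean of the negative control medians of its arrays, so that only a bound on the fold can be given. Such a bound sets the bright group's mean against, on each array of the dim group, the higher of the probe set's own value and the negative control median, which stands in for a detection call. Every fold written as "at least" is of this kind. The bounds were at least 32.6-fold for Olfr613, at least 12.9-fold for Olfr520 and at least 15.2-fold for Olfr494. The remaining members of the 15 most enriched receptors were Olfr110 (4.83 ± 0.35), Olfr1093 (4.54 ± 0.22), Olfr472 (4.14 ± 0.29), Olfr981 (4.01 ± 0.26), Olfr1132 (4.00 ± 0.29), Olfr533 (3.93 ± 0.18), Olfr372 (3.71 ± 0.41), Olfr490 (3.64 ± 0.45) and Olfr101 (3.64 ± 0.26). All 15 passed the threshold of limma under every alternative run, and in each the GFP+ and GFP- values did not overlap.

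At the other end, Olfr1384 had 9.26, 7.33, 7.96 and 4.71 in GFP+ samples and 14.04, 13.34, 13.21 and 13.27 in GFP- samples, a difference of -6.15 ± 0.66 (71-fold, limma adjusted p = 1.75e-06). Its GFP- value was highest in replicate 1, and its GFP+ value in replicate 4 lay far under those of the other GFP+ arrays. The same array was the low one for Olfr1507, with 8.81, 9.76, 9.28 and 5.36 against 14.70, 14.32, 15.03 and 13.34 (-6.05 ± 0.82) and replicate 4 lowest in GFP- cells too, and for Olfr677, with 7.98, 7.29, 8.33 and 4.45 against 12.61, 12.43, 12.38 and 12.85 (-5.56 ± 0.56). Among the 264 depleted receptors the GFP+ array of replicate 4 was the lowest of its group for 129, and that of replicate 1 for 26. Among the 399 enriched receptors it was the GFP+ array of replicate 2 that was lowest most often, for 246, and that of replicate 4 was highest for 188. Over all 22206 probe sets these arrays were lowest for 4415 (replicate 4) and 7941 (replicate 2). The depleted receptors varied more among GFP+ arrays (median SD 0.60) than among GFP- arrays (0.35).

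Olfr411 had the smallest SE of the 15 most depleted receptors, with 8.93, 8.72, 9.18 and 7.85 against 13.56, 13.69, 13.43 and 14.14 (-5.04 ± 0.34, 32.8-fold, limma adjusted p = 6.66e-09). Olfr390 had 8.62, 8.54, 8.99 and 6.69 against 13.85, 13.61, 13.51 and 13.66 (-5.45 ± 0.48), again lowest in replicate 4. Olfr1213 had the largest SE of the 15, with 9.41, 7.92, 9.48 and 5.21 against 13.99, 13.12, 13.85 and 12.94 (-5.47 ± 0.98, limma adjusted p = 0.000476). The others were Olfr1322 (-5.37 ± 0.54), Olfr1447 (-5.32 ± 0.48), Olfr99 (-5.31 ± 0.47), Olfr1406 (-5.04 ± 0.52), Olfr1140 (-4.99 ± 0.70), Olfr393 (-4.94 ± 0.52), Olfr392 (-4.83 ± 0.50), Olfr116 (-4.82 ± 0.46) and Olfr1446, which fell to the negative control level in GFP+ cells (at least 14.9-fold lower). In the GFP+ fraction 52 of the 264 depleted receptors had means at or under the negative controls, and the rest kept signal above that level. Conversely 28 of the 399 enriched receptors were at or under that level in GFP- cells.

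**Figure D2:**
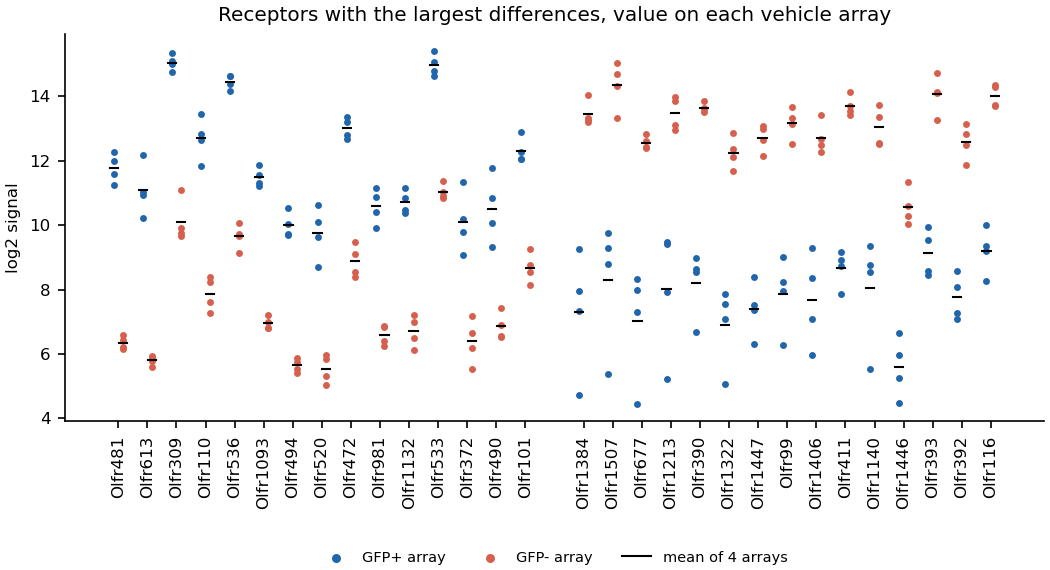
Log2 signal (vertical axis) of the 15 most enriched and 15 most depleted odorant receptors on each of the 8 vehicle arrays, GFP+ in blue and GFP- in red, with bars at the means of 4 arrays. The groups of every receptor shown do not overlap, which was a condition of the choice. In Olfr1384, Olfr1507, Olfr677 and Olfr1213 a single low GFP+ array, replicate 4, widens the group.

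Receptor genes lie in clusters, and enrichment was unevenly spread over them. When receptors were chained into runs wherever neighbours lay no more than 1 Mb apart, 49 runs resulted. Over all 1080 receptors 36.94% were higher and 24.44% lower. In the run from Olfr522 to Olfr541 on chromosome 7, 15 of 19 receptors were higher and 0 lower, with a median difference of 1.83; Olfr536 and Olfr533 belong to it. In the run from Olfr62 to Olfr1328 on chromosome 4, 10 of 13 were higher and 0 lower (median 0.94). The run from Olfr722 to Olfr1507 on chromosome 14 had 23 of 36 higher and 8 lower (median 1.24), with the strongly depleted Olfr1507 at its end. On chromosome 9, the run from Olfr160 to Olfr986 had 52 of 94 higher (55.32%) and 18 lower (19.15%).

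Other runs leaned the opposite way. In the run from Olfr310 to Olfr292 on chromosome 7, 10 of 15 receptors were lower and 1 was higher (median -1.56), and the exception was Olfr309, among the most enriched receptors of all. The run from Olfr376 to Olfr412 on chromosome 11 had 15 of 29 lower and 3 higher (median -0.89) and holds Olfr390, Olfr392, Olfr393 and Olfr411. On chromosome 10, the run from Olfr9 to Olfr827 had 18 of 56 lower (32.14%) and 5 higher (8.93%), with a median of -0.21. The shares of all receptors were 24.44% lower and 36.94% higher. The run from Olfr1417 to Olfr1505 on chromosome 19 was mixed, with 18 of 61 higher (29.51%) and 24 lower (39.34%). So was the largest run, from Olfr987 to Olfr1274 on chromosome 2, with 98 of 220 higher (44.55%) and 53 lower (24.09%). Members of a run are often close relatives and are not independent, and whether their probe sets share signal was not tested.

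**Figure D3:**
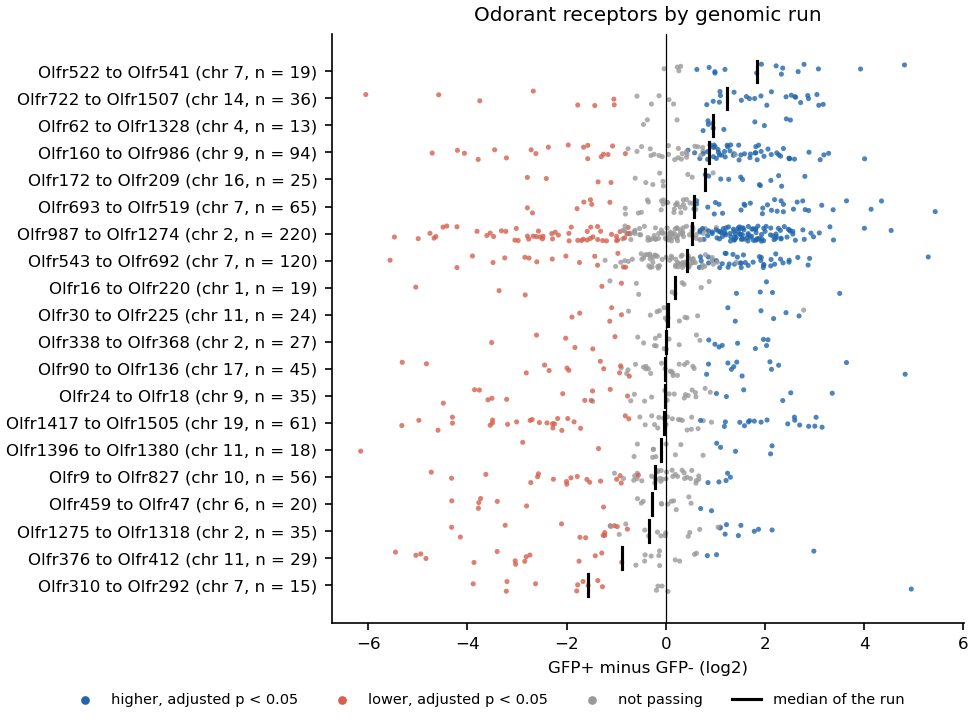
GFP+ minus GFP- difference (log2, horizontal axis) of every odorant receptor in the runs of 13 or more, one line per run, with members past the threshold as higher in blue and as lower in red, others in grey and the median of the run as a black bar. Medians run from 1.83 for Olfr522 to Olfr541 down to -1.56 for Olfr310 to Olfr292, where Olfr309 stands alone at 4.95.

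Direct neighbours that both passed moved in the same direction more often than in opposite directions. Of 1031 adjacent pairs within the runs both receptors passed in 384, in the same direction in 265 and in opposite directions in 119. Among all receptors 399 were higher and 264 lower. The pairs named next are the wide contrasts among the 119. The widest contrast was on chromosome 17, where Olfr99 had -5.31 ± 0.47 and Olfr101 3.64 ± 0.26. Olfr99 had a mean ± SD of 7.87 ± 1.14 in GFP+ and 13.18 ± 0.48 in GFP- samples, and Olfr101 had 12.32 ± 0.40 and 8.67 ± 0.46 (n = 4 arrays each). The order of the fractions was opposite in the neighbours, both chosen among receptors whose groups did not overlap. Olfr1447 (-5.32 ± 0.48) and Olfr1448 (2.60 ± 0.26) on chromosome 19, Olfr728 (-4.58 ± 0.41) and Olfr729 (2.62 ± 0.30) on chromosome 14, Olfr1140 (-4.99 ± 0.70) and Olfr1138 (2.22 ± 0.33) on chromosome 2, and Olfr494 (at least 15.2-fold higher) and Olfr495 (at least 3.37-fold lower) on chromosome 7 were other such pairs.

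Homeodomain proteins such as Lhx2 bind sites with the core TAATTA, and such sites are known from receptor promoters. In the 250 bases before the start, searched on both strands, TAATTA was present in 166 of 925 windows of receptors (17.9%), against 4.84% of all 32851 windows of the RefSeq table. Windows were found for 921 of the 1080 receptors. The share was 18.3% among enriched receptors (63 of 344 windows), 20.3% among depleted receptors (45 of 222) and 16.2% among those that did not pass (58 of 359). The share in receptors was thus above that in all windows whichever way the receptors moved. The window of Olfr481 (chr7:108080546-108080795, plus strand, GRCm38.p6) and a stretch of the window of Olfr520 (chr7:99735017-99735054, plus strand) are shown because these are receptors among the 15 most enriched in whose windows it was found, with TAATTA in capitals. A match is a run of letters and not a shown binding site.
Olfr481: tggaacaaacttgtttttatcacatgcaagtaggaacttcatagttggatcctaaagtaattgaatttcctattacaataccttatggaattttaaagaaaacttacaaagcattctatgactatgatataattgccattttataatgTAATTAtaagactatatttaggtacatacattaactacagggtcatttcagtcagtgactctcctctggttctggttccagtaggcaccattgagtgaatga
Olfr520: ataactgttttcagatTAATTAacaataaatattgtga

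Trace amine-associated receptors, a small second family of olfactory receptors that detect volatile amines, were split as well: 7 of 15 were higher, 5 lower and 3 did not pass, with a median difference of 0.83. Taar4 had 11.16, 11.84, 12.02 and 12.08 in GFP+ and 8.60, 9.36, 8.89 and 9.05 in GFP- samples (2.80 ± 0.27, 6.97-fold, limma adjusted p = 4.81e-07). Taar2 went the other way, with 7.96, 7.99, 8.33 and 5.84 against 10.44, 10.29, 10.42 and 10.49 (-2.88 ± 0.39, 7.37-fold), and its GFP+ array of replicate 4 was the low one. In both genes the groups did not overlap, and the GFP- arrays of Taar2 were nearly equal. Higher with Taar4 were Taar9 (2.18 ± 0.43), Taar7b (1.49 ± 0.31), Taar8a (1.36 ± 0.17), Taar7e (1.28 ± 0.26) and Taar3 (1.08 ± 0.28). Taar5, which completes the 7, passed with both groups under the negative controls, so that no size is given for it. Lower were Taar7a (-2.09 ± 0.36), Taar6 (-1.11 ± 0.24), Taar7d (-0.98 ± 0.21) and Taar7f (-0.67 ± 0.22, limma adjusted p = 0.0356, 0.19 with array medians set equal and 0.0685 with only the 8 vehicle arrays). Taar7b and Taar7e were thus higher while Taar7a, Taar7d and Taar7f were lower; the Taar7 and Taar8 genes are near-identical copies, so the assignment of signal among them is uncertain. Taar8c (0.83 ± 0.30, limma adjusted p = 0.0594), Taar8b (-0.23 ± 0.28) and Taar1, the last under the negative controls in both groups, did not pass, and Taar8c passed with the pool as a block (limma adjusted p = 0.0276).

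Transcripts that follow activity slowly were higher in GFP+ cells. Of 9 measured genes 6 were higher and 0 lower, with a median of 0.87 against 0.11 over all probe sets. With the receptor medians set equal 3 were higher and 1 lower, and with the medians of all probe sets (array medians) set equal 7 and 0. S100a5, whose reporter selected the cells, is among the 6. Pcp4l1, a small protein with a calmodulin-binding motif, had 15.34, 15.05, 15.40 and 15.35 in GFP+ and 13.51, 14.10, 13.62 and 13.96 in GFP- samples (1.49 ± 0.15, 2.8-fold, limma adjusted p = 6.67e-07), with no overlap. Epha5, an ephrin receptor used in axon sorting, had 11.38, 11.61, 11.63 and 11.18 against 10.55, 10.62, 10.38 and 10.52 (0.93 ± 0.14, limma adjusted p = 8.07e-05). Sema7a, a membrane-bound semaphorin, differed by 0.67 ± 0.15 (limma adjusted p = 0.00415), and lost its call with receptor medians set equal (limma adjusted p = 0.0707).

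The remaining members varied between pools. Lrrc3b, a leucine-rich repeat protein, had 13.15, 14.19, 14.18 and 14.42 against 11.72, 12.72, 12.85 and 13.26 (1.35 ± 0.42, limma adjusted p = 0.0284, 0.0741 with receptor medians set equal). Its groups overlapped although each pool showed a higher GFP+ value, and replicate 1 was the lowest in both fractions. Kirrel2, a homophilic adhesion protein that sorts olfactory axons by activity, had 13.26, 13.88, 14.72 and 14.35 against 11.80, 14.07, 13.61 and 13.63 (0.77 ± 0.42, limma adjusted p = 0.206, 0.0249 with the pool as a block). Its difference was negative in pool 2 and positive in the other 3 pools. Pcdh10, an adhesion molecule, was higher by 1.13 ± 0.38 (limma adjusted p = 0.0448, 0.0589 with receptor medians set equal and 0.104 with only the 8 vehicle arrays), whereas Kirrel3 (-0.34 ± 0.21) and Camk2n1, an inhibitor of calcium/calmodulin-dependent kinase II (-0.47 ± 0.28), did not pass.

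Immediate-early genes, which neurons and many other cells switch on within minutes of stimulation, were lower in GFP+ cells. Of 31 probe sets for 29 such genes 17 were lower and 0 higher, with a median difference of -0.90, and with array medians set equal 16 were lower and 6 higher. Fos had 9.34, 9.43, 8.45 and 11.21 in GFP+ and 13.62, 15.07, 12.90 and 15.41 in GFP- samples (-4.64 ± 0.70, 25-fold, limma adjusted p = 7.55e-05). The GFP- arrays of replicates 2 and 4 were the highest, and all GFP+ arrays lay under all GFP- arrays. Egr1 had 8.20, 7.60, 6.01 and 9.30 against 11.64, 13.34, 11.50 and 13.65 (-4.76 ± 0.71), Zfp36, which destabilizes cytokine mRNAs, 7.42, 6.84, 7.03 and 8.62 against 11.65, 13.06, 11.43 and 13.26 (-4.87 ± 0.54), and Junb 7.93, 7.72, 7.94 and 8.24 against 10.45, 12.23, 10.32 and 12.13 (-3.32 ± 0.48). In all 3 the GFP- arrays of replicates 2 and 4 were again the highest.

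Il1b, the interleukin-1 beta gene of activated myeloid cells, had 9.96, 12.55, 10.51 and 12.51 on the same GFP- arrays and 6.13, 6.57, 5.10 and 7.33 on the GFP+ arrays (at least 24.1-fold lower), so it too was highest on the GFP- arrays of replicates 2 and 4. Of the neutrophil genes 24 of 25 and of the monocyte and macrophage genes 17 of 22 were lower in GFP+ cells, with list median levels of 5.91 to 6.57 (GFP+) and 11.75 to 12.99 (GFP-) for the first and 7.65 to 8.05 and 9.93 to 10.86 for the second. The part of these cells in the immediate-early result was not tested. Btg2 (-4.39 ± 0.39) was lower too, and Nr4a1 (-2.18 ± 0.78, limma adjusted p = 0.0556) passed with the pool as a block (limma adjusted p = 0.00849). Arc and Npas4, which are more neuron-specific, lay under the negative controls in both fractions and did not pass.

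The count of transduction genes that passed depended on the scaling of the arrays. Of 18 measured 3 were higher (16.67%) and 1 lower (5.56%), beside backgrounds of 9.34% and 11.8%. With receptor medians set equal the counts were 1 and 1. With array medians set equal, where 58.6% of all probe sets were higher, they were 16 and 1. The differences of Gnal (the alpha subunit of Golf), Adcy3 (its adenylyl cyclase) and the channel subunits Cnga2 and Cnga4 were -0.03 ± 0.11, 0.18 ± 0.12, 0.18 ± 0.10 and 0.13 ± 0.11, none past the threshold, and that of Gnal turned to 0.32 with array medians set equal. Setting receptor medians equal shifted differences by -0.23, more than the size of any of these, so their signs depended on the scaling. Pde1c, the calmodulin-dependent phosphodiesterase that ends the cyclic AMP signal in cilia, was higher, with 16.10, 15.97, 16.13 and 16.13 against 15.39, 15.36, 15.43 and 15.39 (0.69 ± 0.10, limma adjusted p = 4.62e-05). Slc8a1, a sodium-calcium exchanger, was higher by 0.90 ± 0.18 (limma adjusted p = 0.000944), short of the threshold with receptor medians set equal (limma adjusted p = 0.0629), and Ano2, the ciliary calcium-activated chloride channel, by 0.36 ± 0.11 (limma adjusted p = 0.0327, 0.0696 with the pool as a block). Rgs2, a regulator of G protein signalling that also dampens adenylyl cyclase, was the exception on the low side, with 5.06, 4.81, 5.95 and 5.28 against 10.19, 11.28, 10.18 and 10.89 (at least 16.9-fold lower, limma adjusted p = 3.33e-08). Its GFP+ signal lay at the negative control level. As for Fos and Il1b, the GFP- arrays of replicates 2 and 4 were the highest, and the part of blood cells in this difference was not tested.

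Of 19 genes for receptor export and receptor choice 1 was higher and 3 were lower, beside backgrounds of 9.34% and 11.8%. With array medians set equal 12 were higher and 2 lower, and with receptor medians set equal 0 and 5. The export chaperones Rtp1 (0.18 ± 0.10) and Rtp2 (0.17 ± 0.16) did not pass, nor did Lhx2 (-0.16 ± 0.12), a homeodomain factor, and its cofactor Ldb1 (-0.17 ± 0.11). Reep1 was higher by 0.54 ± 0.16 (limma adjusted p = 0.0222, 0.0538 with only the 8 vehicle arrays), and Cbx5, a heterochromatin protein, was lower (-0.45 ± 0.16, limma adjusted p = 0.0487, 0.0811 with the block). Lbr, the lamin B receptor that tethers heterochromatin to the nuclear envelope and is low in mature olfactory neurons, was lower, with 10.71, 10.93, 10.71 and 10.89 against 12.49, 13.11, 12.34 and 12.87 (-1.89 ± 0.23, 3.71-fold, limma adjusted p = 8.33e-06). Smchd1, a chromatin protein of long-term silencing, fell with it, with 8.77, 8.95, 8.73 and 8.35 against 10.54, 10.49, 10.84 and 10.00 (-1.77 ± 0.20). Both had clearly separated groups, and both are also expressed in blood cells. None of the 5 dorsal or 5 ventral zone genes passed in limma, including Nqo1 (0.22 ± 0.14) for the dorsal and Ncam2 (0.34 ± 0.14) for the ventral epithelium, with median differences of -0.19 and -0.07. With array medians set equal 2 of each list were higher. With the pool as a block 1 ventral gene was higher, and with receptor medians set equal 1 dorsal gene was lower. At an unadjusted p under 0.05 the count was 0 higher and 1 lower of the dorsal and 2 higher and 0 lower of the ventral genes.

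Genes of excitability and secretion had scattered members in the enriched set. Over all probe sets 9.34% were higher and 11.8% lower. Fxyd2, the gamma subunit that modulates the sodium pump, was the most enriched named gene outside the odorant receptors, with 11.46, 10.77, 11.36 and 12.32 in GFP+ and 8.05, 8.14, 8.25 and 8.19 in GFP- samples (3.32 ± 0.30, 9.96-fold, limma adjusted p = 2.41e-07). The GFP- arrays were nearly equal and the GFP+ arrays spread over more than 1 log2 unit. It was the only higher member (10%) among 10 sodium pump genes, and 2 (20%) were lower (5 and 1 with array medians set equal). Its relative Fxyd6 moved in the opposite direction, with 8.62, 8.56, 9.07 and 9.26 against 9.71, 10.21, 10.58 and 9.83 (-1.21 ± 0.21), and the pump subunit Atp1b3 was lower (-0.72 ± 0.17, limma adjusted p = 0.00402, 0.0612 with array medians set equal). Among 26 voltage-gated channel genes and subunits 5 were higher and 1 lower, 5 and 1 also with the pool as a block, 2 and 1 with only the 8 vehicle arrays or with receptor medians set equal, and 19 and 1 with array medians set equal. Kcnn2, a calcium-activated potassium channel, had 13.33, 13.34, 13.34 and 13.33 against 12.23, 12.30, 12.55 and 12.30 (0.99 ± 0.11, 1.98-fold, limma adjusted p = 3.05e-06). The 4 GFP+ values were nearly identical. Kcnmb3, a beta subunit of large-conductance potassium channels, was higher by 1.25 ± 0.20 (limma adjusted p = 0.000122). The sodium channel genes Scn8a (0.89 ± 0.27) and Scn3b (0.49 ± 0.13) and the potassium channel gene Kcnd3 (at least 1.07-fold) were the other higher members, and all 3 missed the threshold of limma with only the 8 vehicle arrays (adjusted p of 0.0836, 0.0538 and 0.0788). Kcnj3, an inwardly rectifying potassium channel, was the lower member, with both groups under the negative controls.

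Ptprn, a transmembrane protein of dense-core vesicles, had 10.31, 10.17, 10.39 and 10.08 against 8.53, 8.64, 8.80 and 8.68 (1.58 ± 0.15, 2.99-fold, limma adjusted p = 5.21e-07). Of 18 dense-core vesicle genes 6 were higher and 3 lower, and 11 and 3 with array medians set equal. Syt4, a synaptotagmin of such vesicles, was higher by 1.04 ± 0.14, and Dnajc12 by 0.80 ± 0.18. The lower members were Pam, the enzyme that amidates peptides, with 8.28, 8.19, 7.97 and 8.19 against 11.38, 11.10, 11.63 and 10.75 (-3.06 ± 0.22, 8.34-fold), Cadps2 (-2.03 ± 0.29) and the secretogranin gene Scg2 (-1.61 ± 0.25), so genes of the same organelle moved both ways. Of 25 presynaptic genes 6 were higher and 0 lower, 3 (with 1 lower) with receptor medians set equal and 20 with array medians set equal. Syngr1 (1.01 ± 0.14, limma adjusted p = 4.36e-05), Unc13a (0.81 ± 0.13) and Syn2 (0.67 ± 0.12), all proteins of transmitter release, were among them.

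Of 17 receptors for neuromodulators 10 lay at or under the negative controls in both fractions. Of the 17, 3 were higher (17.65%) and 1 lower (5.88%), beside backgrounds of 9.34% and 11.8%. With array medians set equal the counts were 12 and 1. Cnr1, a cannabinoid receptor, had a mean ± SD of 9.19 ± 0.28 against 7.96 ± 0.37 (n = 4 arrays each; 1.23 ± 0.23, 2.34-fold, limma adjusted p = 0.00061), and Oprd1, the delta opioid receptor, was higher by 0.79 ± 0.17. Oprl1, the nociceptin receptor, was called higher and P2ry2, a purine receptor, lower, each with both groups under the negative controls, so that no size is given, and Oprl1 lost the call with the pool as a block (limma adjusted p = 0.0657). Drd2 (0.17 ± 0.16) and Gabbr1 (0.11 ± 0.10), which control transmitter release from olfactory axons, did not pass. Of 20 calcium-binding proteins and calmodulin kinases 3 were higher (15%) and 3 lower (15%), beside the same backgrounds. With array medians set equal 11 were higher and 1 lower. Besides S100a5 and Pcp4l1 the kinase gene Camk4 was higher (0.55 ± 0.16), and Camk1d (-0.79 ± 0.23), another such kinase, and Nrgn (-0.44 ± 0.12), neurogranin, were lower. These 3 missed the threshold of limma with only the 8 vehicle arrays and the pool as a block (adjusted p of 0.0563, 0.0519 and 0.0837). Calb2, calretinin, fell most, with 12.92, 12.28, 13.37 and 11.67 against 16.16, 15.82, 16.19 and 15.97 (-3.47 ± 0.32, 11.1-fold, limma adjusted p = 2.89e-07). The GFP- values were high and even, and the GFP+ values were lowest in replicates 2 and 4. Of 24 probe sets for mature neuron genes 8 were higher and 0 lower, with 2 higher when receptor medians were set equal and 23 when array medians were set equal, and their median was 0.18 beside the 0.11 of all probe sets. Of 29 genes of axon sorting 5 were higher (17.24%) and 1 lower (3.45%). The counts were 9 and 1 with the block and 3 and 1 with only the 8 vehicle arrays. They were 1 and 2 with receptor medians set equal and 20 and 0 with array medians set equal. Besides Epha5 and Pcdh10, the ephrin receptor Epha7 (0.90 ± 0.18), the protocadherin Pcdh17 (0.66 ± 0.20) and the plexin Plxna3 (0.62 ± 0.14) were higher, and the guidance cue Sema3a was lower (-0.65 ± 0.22). With only the 8 vehicle arrays the limma adjusted p was 0.066 for Pcdh17, and with those arrays and the pool as a block 0.0728 for Sema3a.

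Genes of the cilium were higher by small amounts that did not hold under every scaling. Of 25 genes of intraflagellar transport and ciliary gates 11 were higher and 0 lower, with a median of 0.33. The count was 9 with the pool as a block, 7 with only the 8 vehicle arrays and 4 with both, 13 with quantile normalization and 24 with array medians set equal. With receptor medians set equal 0 passed, and 2 of 25 had an unadjusted p under 0.05. Dync2h1, the motor heavy chain of return transport, had 11.82, 12.73, 12.26 and 11.68 against 11.14, 11.62, 11.27 and 11.05 (0.85 ± 0.22, limma adjusted p = 0.0107), and Cep290, a gatekeeper at the ciliary base, 12.90, 13.75, 13.18 and 12.98 against 12.61, 12.47, 12.61 and 12.19 (0.73 ± 0.17). In both the GFP+ array of replicate 2 was the highest, the array whose negative controls were also high. Of 14 axonemal genes, parts of the motility apparatus, 6 were higher and 0 lower (median 0.51), 6 also with the block and 10 with array medians set equal. With receptor medians set equal 0 of the 14 passed and 6 had an unadjusted p under 0.05. Hydin, a central pair protein, had 9.77, 10.62, 10.33 and 9.60 against 8.93, 9.38, 9.24 and 9.15 (0.90 ± 0.18, limma adjusted p = 0.00152), and the dynein chain Dnah9 (0.89 ± 0.17) and the tektin Tekt1 (0.73 ± 0.13) rose with it. Dnah5, another dynein chain, was at least 1.81-fold higher, with its GFP- group at the negative controls.

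Factors of the RFX family switch on ciliary genes through the X box, searched here as GTTGCCNNG on both strands. It was present in 4 of 22 windows of the transport genes (18.2%) and 4 of 14 windows of the axonemal genes (28.6%), against 4.09% of all windows. Of the genes with a match Bbs7, a subunit of the BBSome coat, passed, and Ift27, Ift57, Mks1, Tekt2, Fam183b and Dynlrb2 did not. Bbs7 was at 12.88, 12.56, 12.89 and 12.94 against 12.34, 12.31, 12.23 and 12.53 (0.47 ± 0.12, limma adjusted p = 0.0109, 0.057 with only the 8 vehicle arrays and the pool as a block). Its stretch (chr3:36613486-36613526, minus strand, GRCm38.p6) is shown with the match in capitals.
Bbs7: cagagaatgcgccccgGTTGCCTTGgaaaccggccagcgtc

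Among other genes, Hs3st1, a heparan sulfate sulfotransferase, had 11.43, 11.16, 11.42 and 11.62 in GFP+ and 10.12, 10.36, 9.66 and 10.00 in GFP- samples (1.38 ± 0.17, 2.59-fold, limma adjusted p = 6.72e-06). Akap3, an anchoring protein known from the sperm tail, had 7.83, 7.06, 7.75 and 7.81 against 6.34, 5.97, 6.07 and 6.10 (1.49 ± 0.22). Both were chosen among genes whose groups did not overlap. Nell2, a secreted neural glycoprotein (1.40 ± 0.27), Rarb, a retinoic acid receptor (1.32 ± 0.25), Cidea, a lipid droplet protein (1.33 ± 0.21), Caly, a vesicle protein of neurons (1.33 ± 0.19), Acyp2, an acylphosphatase (1.33 ± 0.22), and the ETS factor gene Etv5 (1.35 ± 0.34) were also among the 20 most enriched. H2-M10.6, a nonclassical MHC gene of the vomeronasal organ, and Cntnap5b, a contactin-associated protein, were higher by at least 1.59-fold and at least 1.79-fold, with GFP- cells at the negative controls. Olfr1372-ps1, a receptor pseudogene, was higher by 1.37 ± 0.24.

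Usp29 and Peg3 are divergent imprinted neighbours on chromosome 7 that are expressed from the paternal copy. Usp29, a ubiquitin protease gene, had 7.37, 6.36, 7.28 and 6.53 in GFP+ samples and was at the negative controls in GFP- samples (at least 1.75-fold higher, limma adjusted p = 0.00235). Peg3, a zinc finger gene, had 9.34, 10.64, 9.36 and 8.77 against 8.46, 8.24, 8.18 and 8.14 (1.27 ± 0.29, limma adjusted p = 0.00361, 0.0431 with receptor medians set equal). For both every GFP+ array lay above every GFP- array, with Peg3 highest in replicate 2, whose negative controls were also the highest. The 163 bases between their starts (chr7:6730420-6730582, shown on the plus strand, GRCm38.p6) are printed because they lie between both transcription starts. They hold CAAGGCAAC, a match to the reverse complement of GTTGCCNNG, in capitals.
Peg3 and Usp29: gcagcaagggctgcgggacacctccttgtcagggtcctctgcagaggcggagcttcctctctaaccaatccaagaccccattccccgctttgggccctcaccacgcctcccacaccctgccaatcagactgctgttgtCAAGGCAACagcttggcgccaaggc

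On the depleted side the largest differences were those of genes of blood cells. Neutrophil genes led: 24 of 25 were lower, with a median of -5.96, and all 24 were lower in all 4 pools. The median level of the list was 5.91 to 6.57 on the GFP+ arrays, near the negative controls, and 11.75 to 12.99 on the GFP- arrays. Ngp, a neutrophil granule protein, had 9.46, 9.10, 9.87 and 8.22 in GFP+ and 17.38, 17.71, 17.38 and 17.71 in GFP- samples (-8.38 ± 0.40, 334-fold, limma adjusted p = 1.8e-10). S100a8 and S100a9, which form calprotectin, had 8.56, 7.72, 7.56 and 7.12 against 15.64, 16.15, 15.81 and 15.66 (-8.08 ± 0.36) and 8.34, 8.51, 8.97 and 7.29 against 15.91, 16.56, 16.15 and 16.18 (-7.92 ± 0.39). In GFP+ samples these 3 genes stayed above the negative control median on each array.

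Retnlg, a resistin-like protein, was lower (-8.40 ± 0.48), its GFP+ value being highest in replicate 2 (6.97, 9.67, 7.99 and 7.36). Lcn2 (-8.45 ± 0.45), Chil3 (-7.97 ± 0.37), Ltf (-7.18 ± 0.41) and Ifitm6 (-6.78 ± 0.35) had folds of 349, 250.2, 145 and 110.1. Camp, the cathelicidin precursor, reached at least 86.5-fold, Mmp8 at least 169-fold, Mmp9 at least 65.7-fold, Hp at least 93.8-fold, Ctse at least 136-fold, Rac2 at least 73.4-fold, Chil4 at least 71.6-fold and Mrgpra2b at least 47.1-fold lower in GFP+ cells. For these 8 genes the GFP+ group sat at the negative controls. Genes of immature granulocytes were on the list as well, with Mpo, myeloperoxidase (-6.14 ± 0.44), and Elane, neutrophil elastase (-5.96 ± 0.37), next to Prtn3, proteinase 3 (-2.02 ± 0.28).

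Spi1 encodes PU.1, the ETS factor of myeloid cells, and had 9.61, 10.62, 9.54 and 9.63 in GFP+ and 14.91, 15.61, 15.03 and 15.39 in GFP- samples (-5.38 ± 0.30, 41.7-fold, limma adjusted p = 9.38e-10). A site of the PU.1 type, GAGGAAGT on either strand, was present in 5 of 24 windows of the neutrophil genes (20.8%) and in 2.44% of all windows. The 5 stretches follow, since their genes were all lower in GFP+ cells, with the site or its reverse complement in capitals, on the plus strand of GRCm38.p6 at chr10:79886211-79886250 (Elane), chr9:7558192-7558231 (Mmp8), chr11:87793544-87793583 (Mpo), chr10:79879556-79879595 (Prtn3) and chr3:90668883-90668922 (S100a8). The differences of the 5 genes ran from -8.08 for S100a8 to -2.02 for Prtn3.
Elane: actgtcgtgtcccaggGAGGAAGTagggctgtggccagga
Mmp8: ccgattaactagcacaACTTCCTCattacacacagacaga
Mpo: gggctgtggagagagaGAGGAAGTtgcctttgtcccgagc
Prtn3: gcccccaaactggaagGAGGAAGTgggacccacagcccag
S100a8: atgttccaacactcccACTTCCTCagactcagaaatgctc

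Monocyte and macrophage genes split. Of 22, 17 were lower and 0 higher (median -2.73). Ly6c2, the antigen of inflammatory monocytes, had 5.08, 5.44, 6.04 and 5.61 against 14.72, 15.06, 14.15 and 14.99 and was at least 289.8-fold lower (limma adjusted p = 6.3e-13). Ly6c1 (at least 188-fold) and the chemokine receptor Ccr2 (at least 41.2-fold) fell with it, and all 3 were at the negative controls in GFP+ cells. The complement genes of tissue macrophages did not pass. C1qa had 9.24, 9.61, 9.06 and 9.36 against 8.91, 9.54, 9.17 and 9.68 (-0.01 ± 0.20, limma adjusted p = 0.98), and C1qb (-0.13 ± 0.21) and C1qc (0.33 ± 0.19) gave similar values. Csf1r, a receptor of macrophage growth factors, was lower (-1.65 ± 0.25). Genes of MHC class II were lower in 7 of 9 cases (median -1.90), led by H2-Ab1 with 7.40, 8.42, 7.66 and 7.48 against 12.89, 13.02, 12.78 and 13.32 (-5.26 ± 0.23, 38.5-fold).

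Lymphoid and erythroid genes followed. Of 18 B lineage genes 12 were lower and 0 higher, with Jchain, the joining chain of secreted antibodies, at 5.10, 4.33, 5.14 and 5.27 against 11.65, 12.76, 12.41 and 12.41 (at least 54-fold), Cd79a at least 15.3-fold and Vpreb3, a gene of early B cells, at least 1.74-fold lower. Of 19 probe sets for T and natural killer cells 15 were lower and 0 higher, with Klrb1c at least 3.21-fold and Il7r at least 5.89-fold. Of 15 mast cell, eosinophil and basophil genes 10 were lower, with the histamine enzyme Hdc at -3.91 ± 0.43. Of 12 probe sets for erythroid genes 11 were lower (median -2.74). Car1, a carbonic anhydrase of red cells, had 6.08, 6.64, 6.15 and 6.04 against 13.22, 12.75, 12.36 and 12.80 (at least 75.1-fold), and Slc4a1, the anion exchanger of red cells, kept clear GFP+ signal, with 9.49, 10.24, 9.53 and 10.06 against 13.96, 13.93, 12.69 and 13.33 (-3.65 ± 0.34). Of 8 platelet genes the integrin gene Itgb3 was lower (-1.04 ± 0.19), and Gp6 was called higher with both groups under the negative controls. Of 27 chemokine and cytokine genes 12 were lower and 1 higher, Il18 (0.99 ± 0.17), which had 10.96, 11.49, 10.95 and 11.12 against 10.29, 10.12, 9.98 and 10.15.

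**Figure D4:**
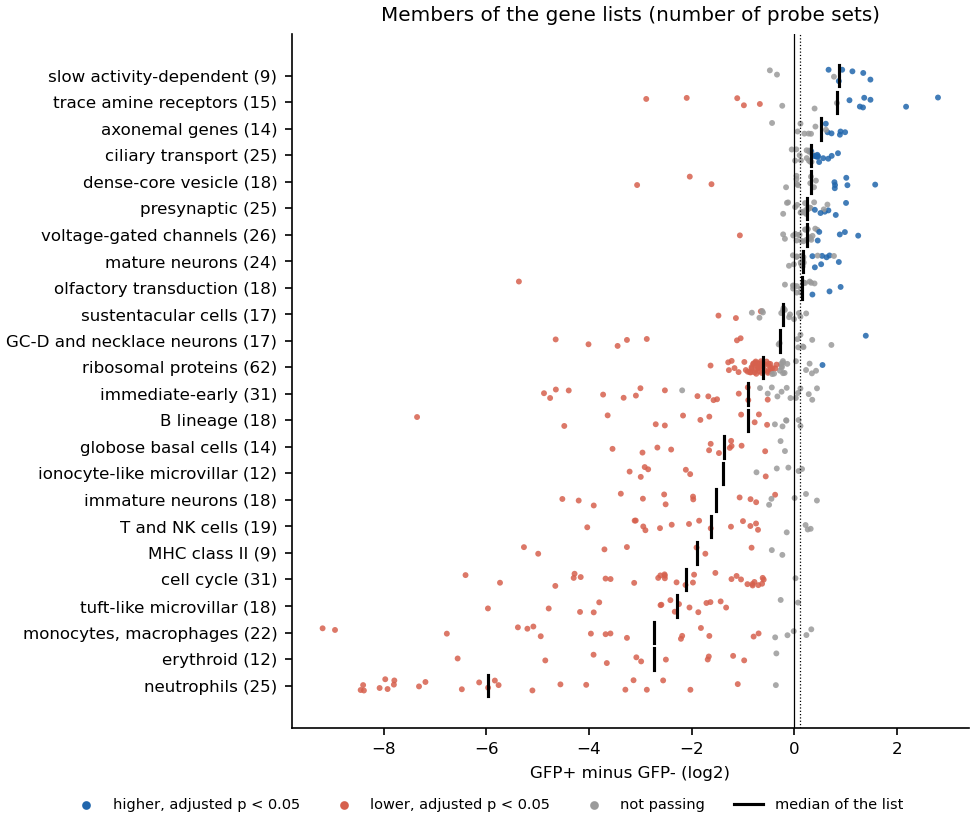
GFP+ minus GFP- difference (log2, horizontal axis) of each member of 24 gene lists, with members past the threshold as higher in blue and as lower in red, others in grey, black bars at list medians and a dotted line at the median of all probe sets, 0.11. List medians run from 0.87 for slow activity-dependent genes to -5.96 for neutrophil genes, and the medians of the cilium lists are 0.33 and 0.51.

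Markers of the neuronal lineage before maturity were depleted. Of 31 cell cycle genes 30 were lower and 0 higher (median -2.12). Mki67, the proliferation antigen, had 7.11, 6.02, 6.73 and 6.18 against 12.60, 12.53, 11.89 and 11.95 (at least 41.2-fold lower, limma adjusted p = 7.21e-10), Ube2c was at least 33.5-fold lower and the cyclin Ccnb2 had -4.65 ± 0.30. Cycling blood precursors also use these genes, and the erythroid and granulocyte genes above were depleted on the same arrays; their part in the result was not tested. Of 14 genes of globose basal cells, the neuronal progenitors, 12 were lower and 0 higher (median -1.36). Kit, which mast cells use too, was at least 6.21-fold lower. Sox11, a factor of newborn neurons, had 9.65, 10.26, 10.36 and 9.02 against 12.09, 12.01, 13.01 and 11.77 (-2.40 ± 0.34), and Neurog1, the proneural factor, was called lower with both groups at or under the negative controls.

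Of 18 genes of immature neurons 13 were lower and 0 higher (median -1.51). Gng8, the G protein gamma subunit of immature olfactory neurons, had 7.38, 7.07, 8.25 and 5.87 in GFP+ and 11.71, 11.22, 11.95 and 10.49 in GFP- samples (-4.20 ± 0.46, 18.4-fold, limma adjusted p = 2.04e-06). In both fractions replicate 4 was lowest and replicate 3 highest. Nhlh1, a helix-loop-helix factor of early neurons, had 6.89, 6.61, 7.63 and 6.06 in GFP+ samples and 9.94 to 11.47 in GFP- samples (-3.91 ± 0.43) with the same extremes, and Gap43, the growth cone protein, 10.39, 9.64, 9.81 and 8.96 against 12.90, 11.93, 12.54 and 11.47 (-2.50 ± 0.36). Dpysl3 (-3.38 ± 0.38) and Stmn1 (-1.97 ± 0.20), both cytoskeletal regulators of growing axons, were lower too, as was the chemokine receptor Cxcr4 (-4.52 ± 0.26), which leukocytes share.

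Transcripts of both classes of microvillar cells, nonneuronal cells of the epithelium, were lower in the GFP+ fraction. Of 18 genes of the tuft-like class 16 were lower and 0 higher (median -2.29). Trpm5, their transduction channel, had 7.01, 5.51, 6.43 and 6.11 against 9.97, 10.30, 11.54 and 9.93 (at least 12.6-fold lower, limma adjusted p = 7.55e-08), and its GFP- value was highest in replicate 3. Alox5, 5-lipoxygenase, was at least 10.1-fold and Sh2d7 at least 4.99-fold lower, and the surface protein Cd24a, also on blood cells, had -5.97 ± 0.26. Of 12 genes of the ionocyte-like class 7 were lower and 0 higher (median -1.38). Foxi1, the forkhead factor of ionocytes, had 7.70, 8.51, 7.67 and 7.60 against 11.45, 10.67, 11.86 and 10.32 (-3.21 ± 0.34, 9.23-fold), and Cftr, their chloride channel, 6.49, 6.88, 6.30 and 7.19 against 10.03, 9.25, 10.25 and 8.97 (-2.91 ± 0.32). In both the GFP- arrays of replicates 1 and 3 were the highest.

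Necklace neurons, which use guanylate cyclase D and MS4A proteins in place of odorant receptors, had 7 of 17 listed genes lower and 1 higher, Nell2. Ms4a4c (-4.65 ± 0.31), Ms4a6c (-3.26 ± 0.27) and Ms4a4b (at least 4.5-fold lower) are also expressed in leukocytes. The defining genes Gucy2d and Cnga3 lay under the negative controls in both fractions and did not pass. Pde2a, a phosphodiesterase of these neurons that other cells use as well, had 7.73, 7.39, 7.87 and 7.26 against 10.77, 11.27, 11.02 and 10.96 (-3.44 ± 0.21, 10.8-fold).

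Most transcripts of supporting cells did not pass, beside backgrounds of 9.34% higher and 11.8% lower over all probe sets. Of 17 sustentacular genes 3 were lower (17.65%) and 0 higher (median -0.22). Without the GFP+ array of replicate 2 the lower count was 7, and with the pool as a block 6. Cyp2g1, an abundant cytochrome of these cells, had 14.36, 15.87, 14.97 and 14.21 in GFP+ and 15.28, 15.81, 15.71 and 15.12 in GFP- samples (-0.63 ± 0.30, limma adjusted p = 0.149, 0.0435 with the pool as a block). The GFP+ value of replicate 2 was the highest of all 8, while the other 3 lay below their own pool's GFP- value. Signal of this gene was strong in both fractions. Notch2 was at least 1.72-fold lower, Aldh1a1 had -1.14 ± 0.28 and Gstm1, a glutathione transferase, -0.65 ± 0.22 (limma adjusted p = 0.0398, 0.209 with array medians set equal and 0.0834 with only the 8 vehicle arrays). Of 19 genes of Bowman's glands and secretory cells 4 were lower (21.05%) and 1 higher (5.26%). The lower ones were Sox9, a transcription factor of gland cells, with 6.65, 7.11, 7.40 and 7.77 against 10.63, 10.68, 11.61 and 10.55 (-3.64 ± 0.26), the water channel gene Aqp5 (-0.63 ± 0.18, limma adjusted p = 0.0174, 0.0645 with only the 8 vehicle arrays), and Lyz1 (at least 3.42-fold) and Ltf, which leukocytes share. Tff2 was called higher with both groups under the negative controls. All 11 horizontal basal cell genes, Krt5 included, lay at or under the negative controls in both fractions, and of them Icam1 was called lower.

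For fibroblasts 0 of 11 genes passed in limma, 5 of them at or under the negative controls in both fractions, and 1 had an unadjusted p under 0.05. Of 10 endothelial genes Tie1 was higher (0.61 ± 0.17) and Pecam1 lower (-0.73 ± 0.19), and Cldn5 was called higher and Tek lower with both groups under the negative controls; Cldn5 lost the call with the pool as a block (limma adjusted p = 0.0984). Of 9 genes of ensheathing glia 1 was higher, the myelin gene Pmp22 (1.14 ± 0.24, limma adjusted p = 0.00225, 0.054 with receptor medians set equal). The counts of higher genes became 4 (fibroblasts), 6 (endothelium) and 5 (glia) once array medians were set equal, with 0 lower. Of 9 heat shock genes, which tissue dissociation can induce, 0 passed in limma and 0 had an unadjusted p under 0.05, with a median of 0.02, and 6 were higher with array medians set equal. Vomeronasal receptors had 30 of 323 probe sets higher (9.29%) and 0 lower, a share near the background of 9.34% (207 higher with array medians set equal, 2 with receptor medians set equal), and 312 lay at or under the negative controls in both fractions. Of 10 other vomeronasal genes Gnai2 (-4.56 ± 0.27) and B2m (-3.41 ± 0.35), which leukocytes also express, and Meis2 (-1.16 ± 0.24) were lower, and Vmn2r1 and Fpr-rs6 were called higher with both groups at or under the negative controls.

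Ribosomal protein genes were mostly lower. Among 62 cytosolic ribosomal protein genes 45 were lower and 1 higher (median -0.61), and 24 were lower and 6 higher with the medians of all probe sets set equal. Rplp0, a stalk protein, had 11.05, 10.36, 11.11 and 10.63 against 12.43, 12.58, 12.38 and 12.27 (-1.63 ± 0.17, 3.09-fold, limma adjusted p = 1.5e-06), and Rps16 12.01, 11.56, 12.04 and 11.88 against 13.19, 13.14, 13.07 and 12.96 (-1.22 ± 0.14). The single higher member was Rps27l (0.55 ± 0.15, limma adjusted p = 0.0136, 0.44 with receptor medians set equal and 0.0543 with only the 8 vehicle arrays). Of 92 genes of the respiratory chain 10 were higher (10.87%) and 1 lower, near the background of 9.34% for higher calls, with 4 and 1 when the pool was a block, 0 higher and 2 lower with receptor medians set equal, and 79 and 1 with array medians set equal. Of 24 genes of oxidative defence 9 were lower and 2 higher, 7 and 0 with only the 8 vehicle arrays and 5 and 10 with array medians set equal. The higher ones were Prdx3 (0.43 ± 0.14), a mitochondrial peroxiredoxin, and Nfe2l2 (0.62 ± 0.20), the NRF2 factor, which had limma adjusted p-values of 0.0663 and 0.0872 with only those arrays. Gpx1, glutathione peroxidase, had 12.32, 12.38, 11.88 and 12.03 against 15.96, 16.25, 15.57 and 15.83 (-3.75 ± 0.25, 13.4-fold, limma adjusted p = 5.47e-09). Gstp1, a glutathione transferase, had a mean ± SD of 7.17 ± 0.21 against 9.28 ± 0.21 (n = 4 arrays each; -2.10 ± 0.21), and glutathione reductase, Gsr, was lower as well (-1.16 ± 0.25). Gpx1 is abundant in blood cells, whose listed genes were depleted on the same arrays, and their part in the result was not tested.

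**Figure D5:**
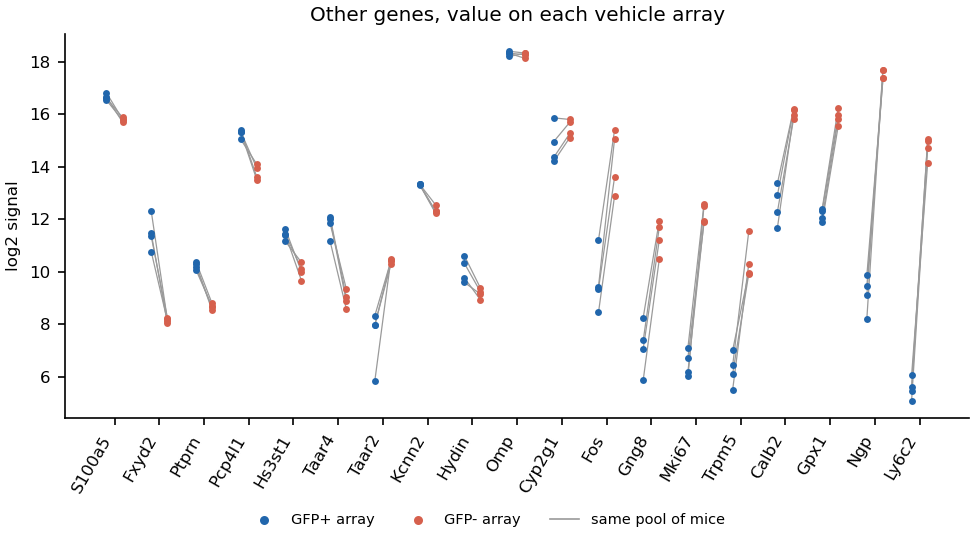
Log2 signal (vertical axis) of 19 genes on each vehicle array, GFP+ in blue and GFP- in red, with grey lines joining the 2 arrays of a pool of 3 mice. S100a5 lies between 16.55 and 16.82 in GFP+ and between 15.70 and 15.88 in GFP- cells, the Omp groups overlap, and Ngp and Ly6c2 are lower in GFP+ cells in every pool.

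The same sort after odor differed from the vehicle sort for few transcripts. In a test of the difference between the GFP+ minus GFP- values of odor and vehicle pools 14 probe sets passed (0.063%), all of them odorant receptors that were more enriched with the odor. None of the 15 most enriched or 15 most depleted receptors of the filtered air sort was among them. In the vehicle pools 5 of the 14 had been lower in GFP+ cells, 1 higher and 8 had not passed. Olfr1395 was clearly depleted in filtered air, with 11.96, 11.01, 11.24 and 11.72 against 14.48, 14.12, 14.21 and 14.66 (-2.88 ± 0.22), and stood at 0.24 after odor. Olfr1284 was already enriched, with 10.82, 10.76, 10.68 and 10.85 against 9.83, 9.22, 9.53 and 9.74 (1.20 ± 0.20), and reached 4.05. Olfr328 had 10.12, 10.66, 12.29 and 8.94 against 12.75, 12.26, 11.64 and 12.30 (-1.73 ± 0.50, limma adjusted p = 0.0193, 0.0594 with only the 8 vehicle arrays) and reached 3.69. Outside the receptors 0 probe sets passed in limma, and 924 of 21126 had an unadjusted p under 0.05.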

How the data were processed

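Total RNA (50 to 100 ng) of sorted cells was labelled as biotinylated cRNA and hybridised to Clariom S mouse arrays. The deposited log2 signals were made by the authors with Affymetrix Expression Console, per the submitters' processing notes; no label or header names its version or summary algorithm. They were used as deposited, between 2.51 and 18.85. Of 28846 entries, 22206 probe sets were tested, and 5222 negative control entries gave the background level; 19572 tested probe sets had 1 gene symbol in the platform annotation. Replicates of a group are separate pools of 3 mice, 24 mice in all.

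Group means of all 16 arrays were fitted with limma 3.58.1 in R 4.3.3 (total df 16.66), because all groups share the assay. The fit uses a single spread per probe set for all groups. Enriched and depleted receptors varied more among GFP+ than among GFP- vehicle arrays (median SD 0.48 against 0.37 and 0.60 against 0.35). The vehicle difference and the odor minus vehicle difference were contrasts of that fit, with Benjamini-Hochberg adjustment over 22206 probe sets and a threshold of 0.05. The code was tested on simulated data with known differences. The main fit recovered 10 of 50 probe sets changed by 0.5 log2 units, 38 of 50 changed by 1 and 49 of 50 changed by 2. A small difference that did not pass is therefore not shown to be absent. GFP+ and GFP- arrays with the same number come from the same pool, per the labels; their deviations from the group means correlated at 0.22, 0.07, 0.06 and 0.20 in the 4 pools. The pool as a block was therefore an alternative, on all 16 arrays and on the 8 vehicle arrays alone, as were the 8 arrays without a block, other array scalings, a filter on dim probe sets, an intensity trend and leaving out arrays.

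The genes described were the 15 most changed receptors and the 20 most changed other genes each way whose groups did not overlap, and up to 4 genes each way per list. Members, motifs and all 45 gene lists were chosen with earlier results of these data known. Genes outside that rule, among them Peg3, Elane, Mpo, Prtn3, Bbs7, Csf1r, C1qa, C1qb, C1qc, Gucy2d, Cnga3, Junb, Nr4a1, Arc, Npas4, Sema7a, Camk2n1, Ldb1, Stmn1, most neighbouring receptors, the remaining trace amine receptors and the sole members that moved in a list, were chosen after their values were seen. Promoter windows of 250 bases before the annotated start came from RefSeq (GRCm38.p6). Of 9 motifs looked at, 4 are described, chosen after their shares were seen; TGACGTCA was in 1.55% of all windows and in 0 of 7 windows of the slow activity genes. A match elsewhere in a gene was not looked for.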

Additional observations from a re-analysis of the deposited data

Results flagged for a closer look

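In 22 of 466 groups of 4 arrays examined for the genes described, a single array lay apart from the other 3, by a gap wider than Dixon's 95% critical value for 4 samples. Chance alone marks about 1 in 20 groups. The array most often involved was the GFP+ array of replicate 2, with 9 of them. Its log2 signals set apart, each beside the range of the other GFP+ arrays, were those of Akap3 (7.06, others 7.75 to 7.83), Bbs7 (12.56, others 12.88 to 12.94), Cnga3 (4.27, others 3.85 to 3.90), Cnga4 (16.89, others 17.21 to 17.22), Foxi1 (8.51, others 7.60 to 7.70), Itgb3 (7.12, others 6.27 to 6.41), Olfr1372-ps1 (13.08, others 11.95 to 12.12), Oprl1 (6.25, others 5.62 to 5.69) and Spi1 (10.62, others 9.54 to 9.63). On the GFP+ array of replicate 1 these were Olfr729 (12.89, others 13.14 to 13.17) and Prdx3 (12.11, others 12.45 to 12.48), on that of replicate 3 Camk2n1 (8.68, others 7.89 to 8.02), Cd79a (5.62, others 6.09 to 6.17) and Hdc (6.32, others 7.35 to 7.52), and on that of replicate 4 C1qc (8.48, others 7.62 to 7.66) and Taar2 (5.84, others 7.96 to 8.33).

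Among the GFP- arrays, replicate 1 stood apart for the receptors Olfr1384 (14.04, others 13.21 to 13.34) and Olfr309 (11.09, others 9.67 to 9.91), replicate 2 for Vpreb3 (6.73, others 7.52 to 7.62), replicate 3 for Sox9 (11.61, others 10.55 to 10.68) and Syt4 (11.94, others 12.31 to 12.36) and replicate 4 for Atp1b3 (13.05, others 12.59 to 12.67).

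The sort difference changed between odor and vehicle pools for 3 receptors described, by 5.42 ± 0.71 for Olfr328 (limma adjusted p = 0.00158), 3.12 ± 0.30 for Olfr1395 (limma adjusted p = 9.95e-05) and 2.85 ± 0.28 for Olfr1284 (limma adjusted p = 9.95e-05). Each SE rests on n = 4 arrays in each of the 4 groups. The test was that of the difference itself.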

How the results depend on the processing

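The count of probe sets higher in GFP+ cells, 2074, was the least stable. It was 2119 with the pool of mice as a block on all 16 arrays (lower 2625), 1462 with only the 8 vehicle arrays and 1365 with both choices together, 13003 with array medians set equal, 3665 with quantile normalization and 515 with receptor medians set equal, and 1535 to 2290 when single arrays were left out. The count of lower probe sets, 2617, ranged from 2008 to 3237 over the 17 alternatives, that of higher receptors, 399, from 341 to 539, and that of lower receptors, 264, from 229 to 296. The 14 probe sets that differed between the odor and the vehicle sort became 22 with receptor medians set equal. Setting receptor medians equal shifted differences by -0.23 and setting array medians equal by 0.35, so the sign of smaller differences depended on the scaling. That of Gnal, for example, turned from -0.03 to 0.32 with array medians set equal. Of 204 genes described that passed, 45 lost the call under at least 1 alternative, 32 of them with receptor medians set equal, 21 with only the 8 vehicle arrays, 20 with only those arrays and the pool as a block, and 4 with the block on all 16 arrays. The block on all 16 arrays gave a call to Nr4a1, Taar8c, Kirrel2 and Cyp2g1, ended those of Ano2, Cbx5, Cldn5 and Oprl1 and changed no other call among the genes described. The cause of these changes was not tested. Probe sets at or under the negative controls allow only bounds on a fold, and the negative control median of the GFP+ array of replicate 2 was about 1 log2 unit over that of the other GFP+ arrays.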
